A study of Mus musculus with 8 samples.

Results

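The genes described here are those of sterol and fatty acid synthesis in mouse embryonic fibroblasts, with their regulators and the genes of sterol transport and lipid uptake. A list of 38 symbols was matched to the deposited count table, and 37 of its 12211 genes carried one of them. Abcg1 was not analysed here. All 37 had enough counts for the test, so the filter on low counts used here removed none of the 37. RNA was read from 4 libraries labelled PUS10KO, for a knockout of the pseudouridine synthase gene Pus10, and 4 labelled control with genotype WT, numbered 1 to 4 in each genotype. Libraries held total RNA prepared with a stranded kit. Both genotypes were grown in DMEM with 10% fetal bovine serum and 1% penicillin-streptomycin. The sources used here give neither how the knockout was made, nor whether a line was 1 clone, nor sex or strain. They speak of 4 sets without saying what a set shares. Separate cultures are not stated, so the p-values cover only library-to-library spread, which may be technical.

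Cells make cholesterol from acetyl-CoA through mevalonate, isoprenoid and squalene intermediates, and fatty acids through acetyl-CoA carboxylase and fatty acid synthase. Both routes are controlled by the sterol regulatory element-binding proteins (SREBPs), membrane-bound transcription factors encoded by Srebf1 and Srebf2. Scap escorts them to the Golgi for cleavage when sterols are scarce, and Insig proteins hold Scap back when sterols are plentiful. Fibroblasts fed with serum take up lipoprotein cholesterol and adjust the synthesis genes to that supply.

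Counts over all genes ran from 17561114 to 24563499 per library, and single members from 50 to 36175 counts. Pus10 was lower in each PUS10KO library, with 13.8 ± 1.60 CPM in PUS10KO and 46.1 ± 6.46 CPM in control (SD, n = 4 each; CPM here are counts scaled to a common TMM-adjusted library total). All 10 fibroblast markers were among the genes counted, but Thy1 had 2 counts over the PUS10KO libraries and 1726 over the control libraries. In the edgeR test of genotype alone given below, 4 of the 10 fell, namely Thy1, Col1a2, Vim and Pdgfrb (adjusted p under 0.05). None of them rose, and 7.11% of all genes tested fell. Pdgfra stood higher in PUS10KO, averaging 101 CPM against 49.8 CPM in control, without passing that test. The summed level of 5 smooth muscle markers was 2564 to 3543 CPM in PUS10KO and 6585 to 19674 CPM in control. They did not move as a set. Acta2, Tagln and Myh11 were lower on average in PUS10KO, and Acta2 and Tagln made up most of the sum. Cnn1 went the other way, averaging 44.9 CPM in PUS10KO and 16.3 CPM in control. Des averaged 1.08 CPM in PUS10KO and 1.26 CPM in control. The Y-linked gene Eif2s3y had 5989 counts in PUS10KO and 0 in control, so sex chromosome content cannot be told apart from genotype. Chromosomes also differed in their median log2 fold change, from -0.60 on chromosome 12 to 0.20 on chromosome X, which carries Nsdhl and Ebp. In bulk RNA, fewer cells of a type and less RNA per cell cannot be told apart.

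Across the whole set, PUS10KO differed from control in 1 gene, Lpl, when library number was left out of the model. None of the 37 members rose and 1 fell (edgeR quasi-likelihood test, Benjamini-Hochberg adjusted p under 0.05 over 11909 genes). Of all genes tested 13.0% were called, 5.9% rising and 7.11% falling, or 703 and 847 genes. With library totals in place of TMM 867 rose and 622 fell. Of the others, 36 did not pass, and 6 of the 37 had an unadjusted p under 0.05. Within numbers 1 to 4 the members' median log2 difference of PUS10KO from control was -0.54, 0.05, -0.26 and -0.10, so it varied in size and sign. In the fit, the median log2 fold change of the members was -0.15, against 0.01 over all genes tested. In the same fit without control library 2 the fallen members were 3, namely Lpl, Sc5d and Hsd17b7. The share of all genes called in that fit is not given here, so this count cannot be set beside it. Counts of all genes over the fits that left 1 library out are given below as ranges. DESeq2 called 2 that fell, Lpl and Npc1, and none that rose, where it called 10.5% of genes as falling and 9.39% as rising. Limma voom called Lpl alone, where it called 12.7% of genes, 5.87% rising and 6.84% falling.

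Libraries that share a number deviated together from their genotype means, so the numbers were also entered as a block. With the replicate block 15 members fell and 2 rose, or 45.9% of the 37, where 39.0% of all genes tested were called, 19.9% falling and 19.1% rising. The members that fell were Mvd, Fdps, Lss, Tm7sf2, Msmo1, Hsd17b7, Sc5d, Npc1, Npc2, Abca1, Scd1, Scd2, Fads1, Fads2 and Lpl. Scap and Dhcr7 rose. In 12 of the 37 the PUS10KO library was lower than the control library of all 4 numbers, and in 3 it was higher in all 4, against 26.9% and 28.4% of all genes tested. Those 3 were Scap, Pmvk and Dhcr7. Calls without the block also depended on which numbers were fitted. In a fit of the libraries numbered 3 and 4 alone 9 members fell, where 23.6% of genes were called, 12.5% falling and 11.1% rising. In one of the libraries numbered 1 and 2 alone none fell, where 5.72% of genes were called, 2.8% falling and 2.92% rising. No member rose in either. On the authors' deposited log2 values with the block, 14 members fell and 3 rose, where 39.2% of genes were called, 19.7% falling and 19.6% rising.

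**Figure D1:**
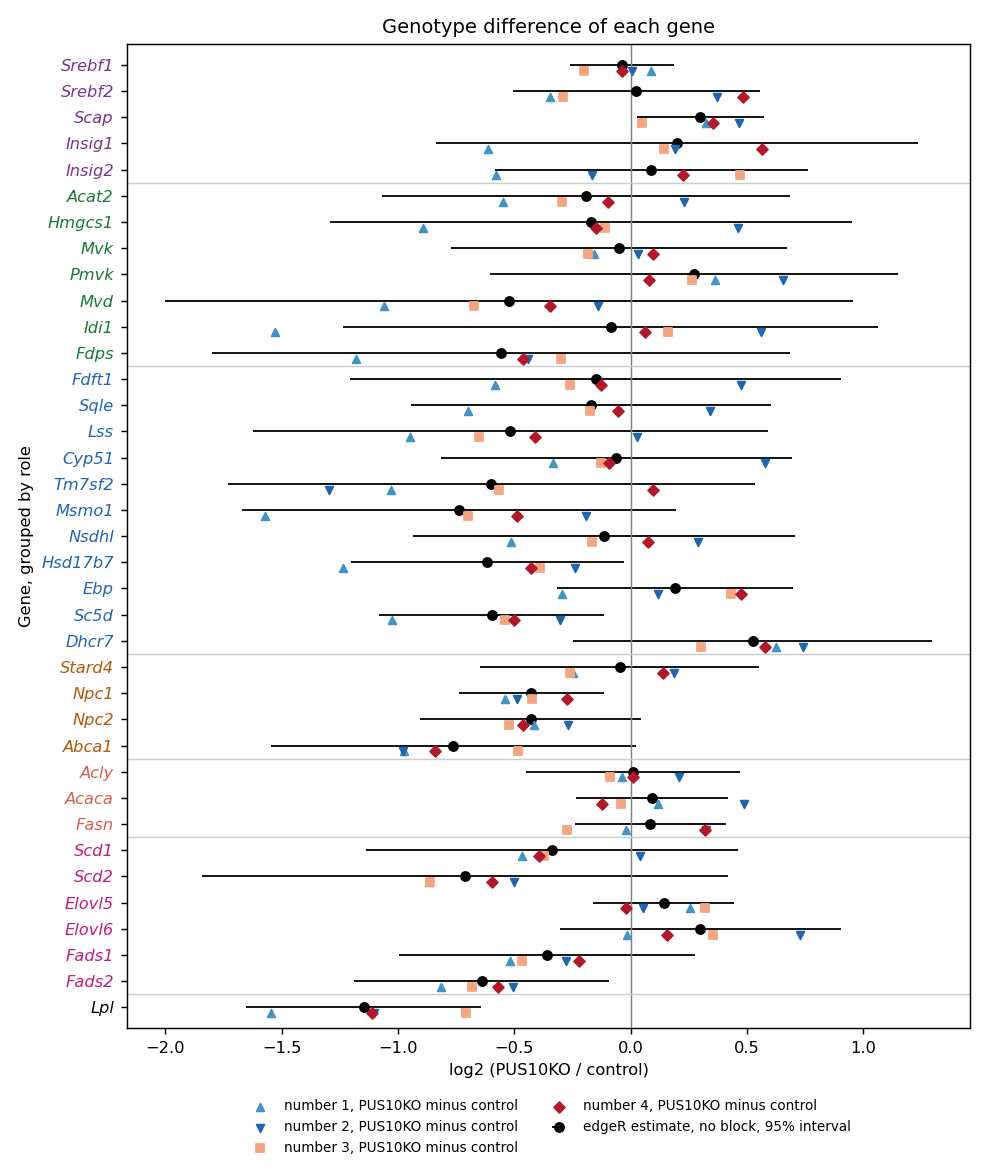
Genotype difference of each of the 37 genes as log2 of PUS10KO over control (horizontal axis). Black points are edgeR estimates without a block with 95% intervals over 4 libraries a genotype, and coloured symbols are the differences within numbers 1 to 4; the interval of Lpl, -1.65 to -0.64, lies well below 0, while 12 genes have all 4 coloured symbols below 0.

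Promoter letters are shown for 5 members to set the sequence beside the levels. They were chosen after the values were seen: Hmgcs1, as the member whose promoter held the sterol regulatory element searched, and in each of 4 role groups the member with a listed promoter that fell with the lowest p under the block. Each window runs from 250 bases before to 50 after the RefSeq start, 5′ to 3′ on the gene's strand (GRCm38.p6). For Hmgcs1 and Sc5d the GENCODE gene begins downstream of that start, at 119690379 and 42264256. Their windows and positions thus depend on the annotation used. Capitals mark the sterol regulatory element (TCACNCCAC), the CCAAT box (CCAAT) and the GC box (GGGCGG) on either strand. The windows are chr13:119690101-119690400 (plus strand) for Hmgcs1, chr8:122443373-122443672 (minus) for Mvd, chr9:42264251-42264550 (minus) for Sc5d, chr4:53159846-53160145 (minus) for Abca1 and chr19:10101454-10101753 (minus) for Fads2.
Hmgcs1: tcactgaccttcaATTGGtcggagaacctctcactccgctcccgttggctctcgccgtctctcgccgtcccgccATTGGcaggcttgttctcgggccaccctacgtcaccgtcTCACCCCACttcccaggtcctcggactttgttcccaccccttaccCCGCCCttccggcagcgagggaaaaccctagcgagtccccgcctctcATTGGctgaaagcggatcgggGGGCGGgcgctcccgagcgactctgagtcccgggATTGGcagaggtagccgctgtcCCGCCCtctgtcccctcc
Mvd: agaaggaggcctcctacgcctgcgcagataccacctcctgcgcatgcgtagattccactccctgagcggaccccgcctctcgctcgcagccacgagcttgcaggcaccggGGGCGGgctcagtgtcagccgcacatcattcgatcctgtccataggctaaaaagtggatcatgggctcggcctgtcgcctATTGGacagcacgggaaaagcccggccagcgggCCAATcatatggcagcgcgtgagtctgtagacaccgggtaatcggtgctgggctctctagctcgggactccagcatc
Sc5d: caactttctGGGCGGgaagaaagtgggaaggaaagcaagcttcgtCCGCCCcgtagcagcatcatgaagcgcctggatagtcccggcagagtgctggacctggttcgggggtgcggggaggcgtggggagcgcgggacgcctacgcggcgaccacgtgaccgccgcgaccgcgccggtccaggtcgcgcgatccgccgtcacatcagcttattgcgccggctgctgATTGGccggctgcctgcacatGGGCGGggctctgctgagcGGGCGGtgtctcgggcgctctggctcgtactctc
Abca1: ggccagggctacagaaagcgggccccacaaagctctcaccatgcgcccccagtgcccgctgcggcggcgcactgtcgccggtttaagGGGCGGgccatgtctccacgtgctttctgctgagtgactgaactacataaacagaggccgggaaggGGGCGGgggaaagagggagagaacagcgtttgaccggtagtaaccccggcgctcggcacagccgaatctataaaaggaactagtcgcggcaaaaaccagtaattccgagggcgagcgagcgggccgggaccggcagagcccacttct
Fads2: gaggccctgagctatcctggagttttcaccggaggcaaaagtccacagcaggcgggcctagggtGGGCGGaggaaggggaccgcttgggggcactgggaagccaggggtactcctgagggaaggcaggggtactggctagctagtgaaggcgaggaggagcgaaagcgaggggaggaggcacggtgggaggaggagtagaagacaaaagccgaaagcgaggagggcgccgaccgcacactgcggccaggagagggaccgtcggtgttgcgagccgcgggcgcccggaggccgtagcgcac

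RefSeq listed 36 promoter windows for 28 of the members. A sterol regulatory element stood in 1 of the 36, the Hmgcs1 promoter at position -137 from the start, or 2.78%, against 1.24% of 32851 promoters in the table. A CCAAT box stood in 23 of 36 (63.9%, against 37.4% of all) and a GC box in 27 of 36 (75%, against 35.7% of all). The CCAAT box is a site of the factor NF-Y and the GC box of Sp1, both known to act with SREBPs at such promoters. The liver X receptor element searched by name, a repeat of AGGTCA with 4 bases between, stood in none of the 36, and in 0.0152% of all promoters. That search allowed no mismatch, so an element with other letters, in the Abca1 window or elsewhere, would not be counted or marked. A match is a description of letters and not a measured site.

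Among the 5 regulators of the pathway none rose and none fell without the block, and 1, Scap, rose with it. Srebf1 had 94.1, 86.6, 84.7 and 87.7 CPM in PUS10KO libraries 1 to 4, against 88.7, 86.4, 97.4 and 89.9 CPM in control libraries 1 to 4. The genotypes overlapped, and all 8 libraries lay close together (log2 fold change -0.04, 95% interval -0.26 to 0.19). Srebf2, which encodes the SREBP that mainly drives cholesterol genes, had 63.2, 61.0, 80.2 and 93.7 CPM in PUS10KO libraries, against 80.5, 47.2, 98.2 and 67.0 CPM in control libraries 1 to 4. Its lowest value was in control 2 and its highest in control 3, so the genotypes overlapped fully (log2 fold change 0.02, 95% interval -0.51 to 0.56).

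Scap, the SREBP escort, ran from 71.4 to 88.2 CPM in PUS10KO and from 56.0 to 69.1 CPM in control. It was 1 of 3 members whose genotypes did not overlap, with Npc1 and Lpl, against 20.3% of all genes tested. Its log2 fold change was 0.30 (SE 0.12, adjusted p = 0.154 without and 0.0334 with the block, edgeR). Insig1, itself an SREBP target whose product retains Scap, had 62.7, 75.5, 164 and 245 CPM in PUS10KO libraries 1 to 4, against 96.0, 66.2, 148 and 166 CPM in control libraries 1 to 4. In both genotypes the libraries numbered 3 and 4 were above those numbered 1 and 2, and the genotypes overlapped (log2 fold change 0.20, 95% interval -0.84 to 1.23). For Insig2, its paralog, the log2 fold change was 0.09 (95% interval -0.59 to 0.76).

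The mevalonate arm, which makes the farnesyl units of sterols, had 7 members, and none passed the test without the block. Its median log2 fold change was -0.17, with Fdps lowest at -0.56 and Pmvk highest at 0.27. Hmgcs1, the synthase that forms the precursor of mevalonate, had 133, 185, 379 and 478 CPM in PUS10KO libraries 1 to 4, against 247, 134, 409 and 531 CPM in control libraries 1 to 4. Number 2 was the exception, with PUS10KO above control, and the genotypes overlapped (log2 fold change -0.17, 95% interval -1.29 to 0.95). With the block its adjusted p was 0.486.

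Mvd, the decarboxylase that yields isopentenyl diphosphate, had 11.1, 13.0, 40.4 and 57.7 CPM in PUS10KO libraries 1 to 4, against 23.2, 14.4, 64.4 and 73.4 CPM in control libraries 1 to 4. It was lower in PUS10KO within each number and overlapped between genotypes (log2 fold change -0.55 with the block, SE 0.14, adjusted p = 0.0170, and 0.671 without the block, edgeR). Fdps, farnesyl diphosphate synthase, showed the same order within numbers at 1.99 to 8.88 CPM in PUS10KO and 2.74 to 12.3 CPM in control (adjusted p = 0.0310 with the block). Annotated transcripts of 5 other genes, 4 of them processed pseudogenes, match Fdps over at least 200 bases at 95% identity or more, so its counts are uncertain. The same holds for Idi1, the isomerase of this arm, for Acat2, the thiolase, whose relative Acat3 is 97.7% identical over 1477 bases, and for Fdft1, Acaca and Elovl6, each with a processed pseudogene. Fdft1 also shares 774 bases with Ctsb, and Acat2 445 bases with Tcp1, both counted genes. The kinases Mvk and Pmvk had blocked adjusted p of 0.657 and 0.0521. Pmvk was higher in PUS10KO within each number (log2 fold change 0.33 with the block). On the authors' deposited values with the block it rose (adjusted p = 0.0465, limma).

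In the arm from squalene to sterol, 11 genes were tested and none passed without the block, while 5 fell and 1 rose with it. Sqle, squalene epoxidase, a rate-limiting step of sterol synthesis, had 162, 159, 261 and 332 CPM in PUS10KO libraries 1 to 4, against 264, 125, 295 and 345 CPM in control libraries 1 to 4. Control 2 was the lowest of all 8 libraries and control 4 the highest (log2 fold change -0.17, 95% interval -0.94 to 0.60). Fdft1, squalene synthase, and Cyp51, the lanosterol demethylase, had log2 fold changes of -0.15 and -0.06. Lss, which closes the sterol rings, fell by 0.50 on the log2 scale with the block (adjusted p = 0.0267). It lies on chromosome 10, whose median log2 fold change was -0.25.

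The members of this arm with the largest falls under the block were Msmo1, Tm7sf2, Sc5d and Hsd17b7. Msmo1, the methylsterol monooxygenase, had 108, 110, 205 and 284 CPM in PUS10KO libraries 1 to 4, against 323, 125, 333 and 398 CPM in control libraries 1 to 4. PUS10KO was lower within each number, least so in number 2, and the genotypes overlapped (log2 fold change -0.73 with the block, SE 0.20, adjusted p = 0.0190, edgeR). Sc5d, the sterol desaturase, had 72.2, 76.4, 98.1 and 117 CPM in PUS10KO libraries 1 to 4, against 147, 94.4, 143 and 166 CPM in control libraries 1 to 4. It too was lower within each number (log2 fold change -0.60 without the block, adjusted p = 0.111, and -0.59 with it, adjusted p = 0.00516). Hsd17b7, a sterol ketoreductase, had -0.57 with the block (adjusted p = 0.0211). Tm7sf2, a sterol reductase, had -0.68 (adjusted p = 0.0381), was lower in PUS10KO in numbers 1 to 3 and not in number 4, and its transcripts share 532 bases with those of Vps51.

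Dhcr7, which makes cholesterol in the last reduction, went the other way. Its 4 PUS10KO libraries had 12.3, 10.4, 18.8 and 20.8 CPM, against 7.93, 6.18, 15.2 and 13.9 CPM in control libraries 1 to 4. PUS10KO was higher within each number, and the genotypes overlapped (log2 fold change 0.56 with the block, SE 0.12, adjusted p = 0.00704, and 0.377 without it, edgeR). The X-linked members Nsdhl, a decarboxylating dehydrogenase, and Ebp, the sterol isomerase, had log2 fold changes of -0.12 and 0.19, beside the median of 0.20 for chromosome X. Neither passed with or without the block.

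Of the genes of sterol transport, 4 were tested and all had log2 fold changes below 0, with 3 falling under the block. Abca1, the pump that loads cholesterol onto apolipoproteins and a target of the liver X receptors, had 20.4, 17.5, 46.8 and 36.0 CPM in PUS10KO libraries 1 to 4, against 40.2, 34.6, 65.5 and 64.4 CPM in control libraries 1 to 4. It was lower within each number, by -0.97, -0.98, -0.49 and -0.84 on the log2 scale for numbers 1 to 4, although PUS10KO 3 and 4 overlapped control 1 and 2. Its log2 fold change was -0.76 without the block (SE 0.35, adjusted p = 0.203) and -0.82 with it (SE 0.11, adjusted p = 0.000606, edgeR).

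Npc1 and Npc2, which together move cholesterol out of lysosomes, had log2 fold changes of -0.43 each. Npc1 ran from 28.0 to 37.6 CPM in PUS10KO and from 39.3 to 50.4 CPM in control, without overlap (adjusted p = 0.0793 without and 0.00500 with the block, and 0.0318 by DESeq2). Part of its annotated transcript, 323 bases, is shared with Rmc1. Npc1 lies on chromosome 18, whose median log2 fold change was -0.17. Npc2 ran from 246 to 393 CPM in PUS10KO and from 297 to 524 CPM in control (adjusted p = 0.00382 with the block). It lies on chromosome 12, and relative to that chromosome's median its log2 fold change was 0.17, a change of sign. Whether the chromosome's shift and the gene's value share a source was not tested. Stard4, a carrier of sterol between membranes, had -0.05 (95% interval -0.65 to 0.55).

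The 3 genes of fatty acid synthesis proper were the least variable of the role groups. Acly, which makes cytosolic acetyl-CoA from citrate, Acaca, the carboxylase, and Fasn, the synthase, had log2 fold changes of 0.01, 0.09 and 0.08, and none passed with or without the block. Fasn had 312, 379, 289 and 312 CPM in PUS10KO libraries 1 to 4, against 316, 303, 349 and 250.1 CPM in control libraries 1 to 4. The highest library was PUS10KO 2 and the lowest control 4, and the other 6 lay between them. The 95% interval of its log2 fold change was -0.24 to 0.41. All 3 lie on chromosome 11, whose median was 0.16.

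All 4 desaturase genes fell under the block, and the 2 elongases did not pass. Scd2, a stearoyl-CoA desaturase that makes monounsaturated fatty acids, had 331, 477, 1024 and 1133 CPM in PUS10KO libraries 1 to 4, against 604, 675, 1864 and 1715 CPM in control libraries 1 to 4. PUS10KO 3 and 4 lay above control 1 and 2, but within each number PUS10KO was lower, by -0.87, -0.50, -0.86 and -0.60 on the log2 scale for numbers 1 to 4. Its log2 fold change was -0.71 both without the block (SE 0.50, adjusted p = 0.414) and with it (SE 0.09, adjusted p = 0.000594, edgeR). Its neighbour Scd1 had 127, 111, 213 and 229 CPM in PUS10KO libraries 1 to 4, against 175, 108, 276 and 300.2 CPM in control libraries 1 to 4. Scd1 was lower in PUS10KO in all numbers except number 2 (log2 fold change -0.30 with the block, adjusted p = 0.0444). The copies are 95.5% identical over 623 annotated bases, so a small part of their reads could be split between them.

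Fads2 and Fads1, which introduce double bonds into polyunsaturated fatty acids, were lower in PUS10KO within each number. Fads2 had 131, 133, 193 and 224 CPM in PUS10KO libraries 1 to 4, against 231, 189, 309.9 and 333 CPM in control libraries 1 to 4. PUS10KO 3 and 4 overlapped control 1 and 2. Its log2 fold change was -0.64 (adjusted p = 0.128 without and 0.000565 with the block, edgeR), and that of Fads1 was -0.37 with the block (adjusted p = 0.00907). These 4 desaturase genes all lie on chromosome 19, whose median was -0.11. Elovl5 and Elovl6, elongases of polyunsaturated and saturated chains, had log2 fold changes of 0.14 and 0.30, with blocked adjusted p of 0.196 and 0.0789.

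Lpl, lipoprotein lipase, which releases fatty acids from circulating lipoproteins, was the member that fell in the comparison of genotype alone. It lies on the plus strand of chromosome 8 at 68880491 to 68907448 (ENSMUSG00000015568.16, GRCm38). Lpl had 19.7, 14.4, 21.1 and 21.4 CPM in PUS10KO libraries 1 to 4, against 57.7, 31.1, 34.6 and 46.3 CPM in control libraries 1 to 4. The highest PUS10KO library lay below the lowest control library. Means were 19.1 ± 3.25 CPM in PUS10KO and 42.4 ± 12.1 CPM in control (SD, n = 4 each), a fitted ratio of 0.451. Its difference was -1.15 on the log2 scale (SE 0.22), with an adjusted p of 0.0102, and of 0.000413 with the block (edgeR). The median of chromosome 8 was 0.03. It ran from -1.27 to -0.96 when 1 library was left out and passed in all 8 such fits. In numbers 1 and 2 alone the difference was -1.37 with an adjusted p of 0.105.

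Lpl is also a gene of adipocytes and macrophages, so markers of both were read beside it. Of 10 adipocyte markers 6, including Adipoq, Plin1 and Cidec, were not among the genes counted, and the summed level of the other 4 was 26.8 to 46.5 CPM in PUS10KO and 27.2 to 55.0 CPM in control. Of 8 macrophage markers 3 were counted, at 2.51 to 6.67 CPM in sum in PUS10KO and 4.997 to 9.05 CPM in control. Pparg, a known activator of Lpl, stood at -0.36 on the log2 scale (adjusted p = 0.286 without and 0.0373 with the block). None of these 7 markers passed without the block. With it Plin4, a lipid droplet protein, stood at -1.48 (adjusted p = 0.00480), Fabp4, a fatty acid carrier, at 1.04 (adjusted p = 0.00207) and the macrophage lysozyme Lyz2 at -1.42 (adjusted p = 0.0108), so 1 of the 4 adipocyte markers rose and 2 fell, and 1 of the 3 macrophage markers fell. Cebpa, Cd68 and Csf1r did not pass with the block. Their part in the fall of Lpl was not tested.

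**Figure D2:**
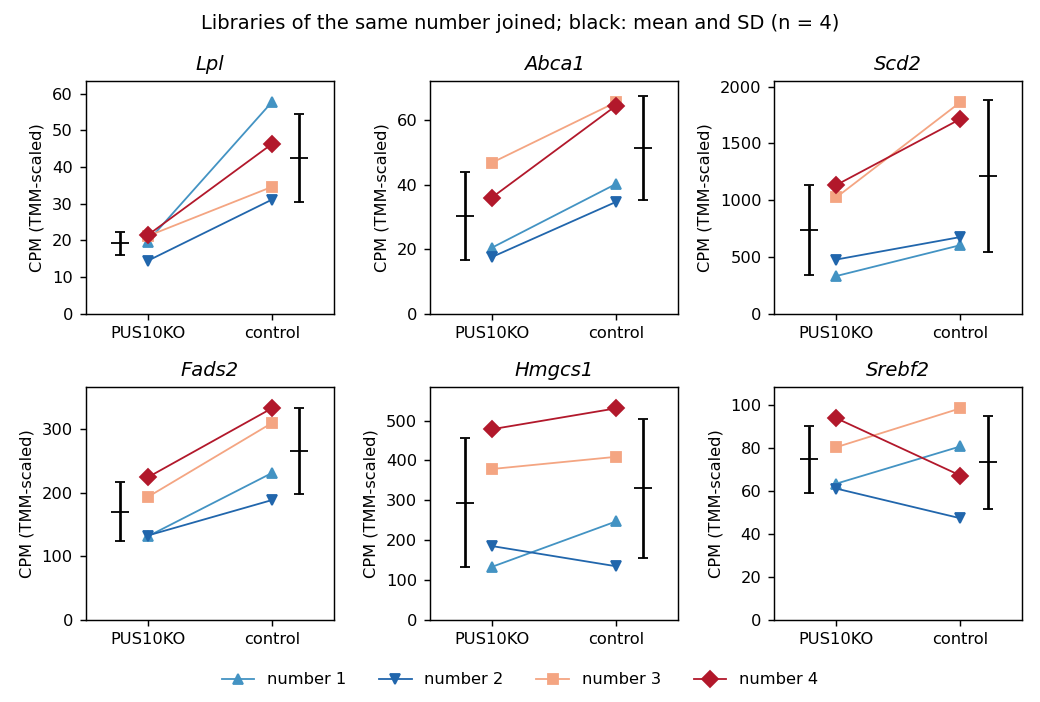
TMM-scaled CPM of 6 genes in PUS10KO (left) and control (right) libraries, with lines joining libraries of the same number and black bars for the mean and SD (n = 4). Lpl, Abca1, Scd2 and Fads2 are lower in PUS10KO along all 4 lines, while the lines of Hmgcs1 and Srebf2 cross.

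The larger difference in most of these genes was between library numbers, in both genotypes. What a number shares is not given in the labels, and that the numbers fall into 1 and 2 against 3 and 4 was read from the counts. A difference between numbers, tested given genotype, was called for 27 of 37 members (73%), where 42.4% of all genes tested were called (edgeR F test, adjusted p under 0.05). In 24 of 37 members (64.9%) the libraries numbered 3 and 4 lay above those numbered 1 and 2 in PUS10KO and in control, against 22.9% of all genes tested. In none of the 37 did they lie below in both genotypes, against 21.8% of all genes.

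Sterol enzymes made up most of this. The median ratio of numbers 3 and 4 over numbers 1 and 2 in the mevalonate arm was 2.71 in PUS10KO and 2.32 in control, and all 7 genes had the higher pair in both genotypes. In the arm from squalene to sterol the ratios were 1.80 in PUS10KO and 1.75 in control, with 7 of 11 genes. Mvd differed most, by ratios of 3.99 in PUS10KO and 3.75 in control (adjusted p = 0.000484 for number, edgeR). Scd2 had ratios of 2.71 and 2.80 (adjusted p = 0.000285 for number), and Abca1 2.16 and 1.74. Fasn and Srebf1 had 0.875 and 0.955 in PUS10KO, and 0.955 and 1.07 in control, and neither passed the test of number.

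**Figure D3:**
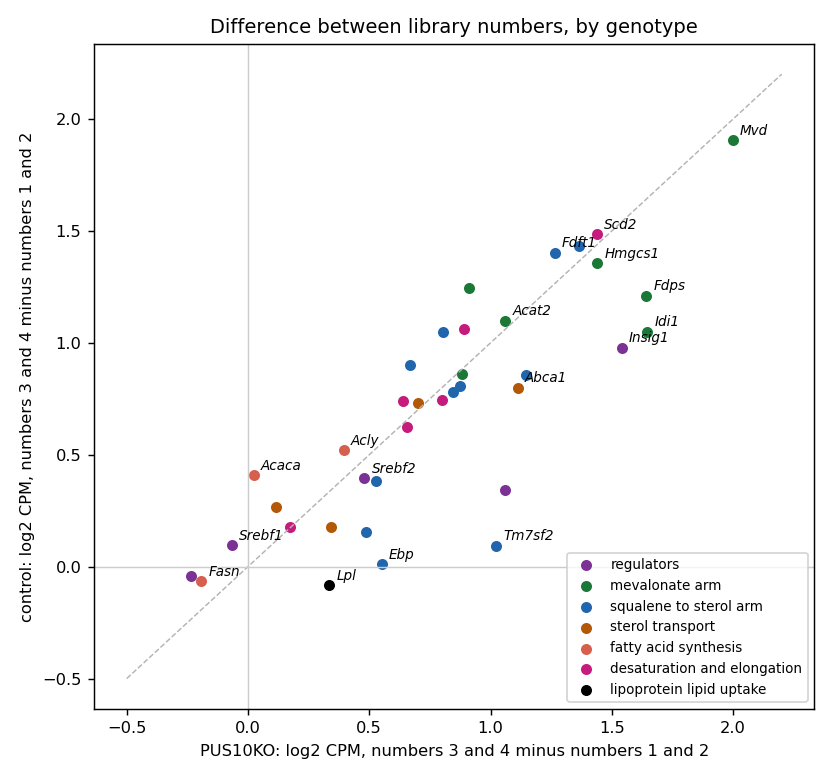
Log2 CPM of the libraries numbered 3 and 4 minus that of numbers 1 and 2, in PUS10KO (horizontal) and control (vertical), for each of 37 genes coloured by role. All mevalonate genes and most sterol genes lie well above 0 on both axes, with Mvd farthest out, while Srebf1 and Fasn lie near 0.

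The order of libraries was nearly the same from enzyme to enzyme. Among the 18 enzymes of the mevalonate and sterol arms, PUS10KO 4 was the highest PUS10KO library for all 18, and control 2 the lowest control library for all 18. The lowest PUS10KO library was number 2 for 10 and number 1 for 8. Their summed level was 1107, 1125, 1957 and 2510 CPM in PUS10KO libraries 1 to 4, against 1882, 959, 2353 and 2825 CPM in control libraries 1 to 4. Within numbers the sum was thus lower in PUS10KO in numbers 1, 3 and 4 and higher in number 2. The median log2 CPM of these enzymes was 5.34, 5.15, 6.01 and 6.37 in PUS10KO libraries 1 to 4. In control libraries 1 to 4 it was 6.07, 5.26, 6.06 and 6.21. By that median control 1 lay beside control 3 and only control 2 was low, whereas PUS10KO 1 and 2 were both low. The median within-genotype SD of log2 CPM was 0.87 in the mevalonate arm and 0.59 in the sterol arm, against 0.20 for the 3 fatty acid synthesis genes and 0.30 over all genes tested.

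**Figure D4:**
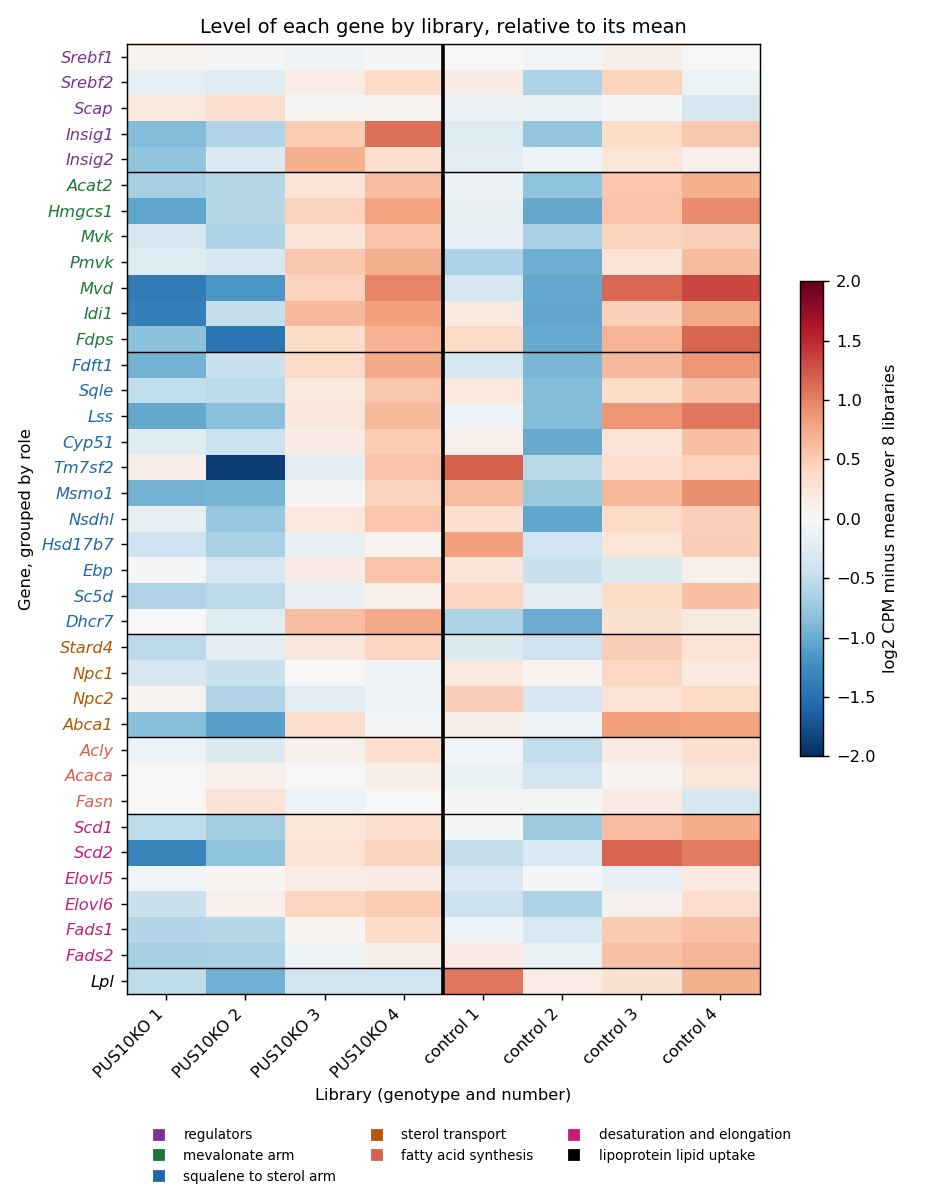
Log2 CPM of each of the 37 genes (rows, coloured and grouped by role) in each library (columns, PUS10KO left and control right) minus the gene's mean over 8 libraries. Red cells in the sterol rows gather in the libraries numbered 3 and 4 of both genotypes, and control 2 is blue in all 18 enzyme rows.

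Compared per length of annotated exon, which allows levels of different genes to be set side by side, Scd2 stood highest in both genotypes, with 136 CPM per kilobase in PUS10KO and 222 in control. Acly followed with 108 in PUS10KO and 107 in control. Cyp51 had 68.5 and 71.4 CPM per kilobase in PUS10KO and control, Hmgcs1 64.0 and 71.9, Npc2 60.5 and 81.5, and Fads2 51.7 and 80.6. Scd2 and Acly lay within 1 SD of Scd2 of each other, with SDs of 72.6 for Scd2 and 19.8 for Acly in PUS10KO, and 122 and 24.6 in control. Acly lay more than 1 SD above the next gene in both genotypes. The lowest value in both genotypes was that of Fdps, at 1.25 in PUS10KO and 1.83 in control. In control it was not set apart from Dhcr7, at 1.86 (SDs 0.939 for Fdps and 0.763 for Dhcr7). Nor was it set apart from Lpl in PUS10KO, where the SDs were 0.774 for Fdps and 0.311 for Lpl. The counts of Fdps are uncertain because transcripts of other genes match it, so its place in this order is uncertain too. Lpl had 1.83 in PUS10KO and 4.05 in control.

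In the surrounding pathways single genes were called. Of 96 tested genes in 6 further lists, 3 rose, 3 fell and 90 did not pass without the block. With it 14 rose and 15 fell. The shares called over all genes tested were larger than in these lists, at 13.0% without the block and 39.0% with it. Enzymes of oxysterols, the oxidised sterols that restrain SREBP processing, gave 2 of the calls in these lists without the block, in opposite directions. Ch25h, which makes 25-hydroxycholesterol, averaged 6.02 ± 2.02 CPM in PUS10KO and 18.8 ± 2.13 CPM in control (log2 fold change -1.65, SE 0.27, adjusted p = 0.00458, edgeR). Cyp7b1, which breaks oxysterols down, averaged 12.4 ± 6.91 CPM in PUS10KO and 2.14 ± 1.59 CPM in control (log2 fold change 2.52, SE 0.60, adjusted p = 0.0251). The call of Cyp7b1 was lost without control 1, 2 or 3 or PUS10KO 3 or 4 (adjusted p up to 0.0594), while Ch25h passed in all 8 fits. Without the block the other 19 of the 21 genes of cholesterol esterification, transport and oxysterols did not pass, and none of 12 genes of SREBP processing and sterol sensing did (0 at an unadjusted p under 0.05, and 0 by DESeq2 and limma voom). With the block 2 of the 21 rose and 2 fell, Stard5 and Gramd1b being added, and 1 of the 12, the site-2 protease gene Mbtps2, rose (log2 difference 0.42, adjusted p = 0.0175).

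The remaining calls fell on single genes. Elovl7, a fatty acid elongase, averaged 26.4 ± 6.53 CPM in PUS10KO and 6.98 ± 2.13 CPM in control (log2 fold change 1.92, adjusted p = 0.00249, edgeR), and the other 10 tested genes of its list did not pass without the block. With it Fads3 fell (adjusted p = 0.00884) and Cyb5r3 rose (adjusted p = 0.0456). Lpin3, a phosphatidate phosphatase of glycerolipid synthesis, averaged 0.628 ± 0.265 CPM in PUS10KO and 6.13 ± 2.32 CPM in control (log2 fold change -3.28, adjusted p = 0.00111), and the other 22 genes of that list did not pass without the block. With it 8 of the 23 fell and 2 rose, where 19.9% and 19.1% of all genes tested did. Among those that fell was Plin2, a lipid droplet protein, at -0.62 (adjusted p = 0.000538). Fntb, a farnesyltransferase subunit on chromosome 12, had -0.70, beside that chromosome's median of -0.60 (adjusted p = 0.0135), and the other 8 isoprenoid genes did not pass without the block, while with it Pdss1, of ubiquinone synthesis, rose (0.59, adjusted p = 0.00188). Cpt1c, of the carnitine palmitoyltransferase family, had 1.00 (adjusted p = 0.0463), a call lost without control 1 or 2 or PUS10KO 2, 3 or 4 (adjusted p up to 0.119).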

How the data were processed

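The deposited main table holds raw whole-number counts for each gene and library. A second table deposited by the authors holds normalized values, taken here as log2 because they span 5.13 to 18.1 (no source states the scale). There each of the 12211 genes has the same PUS10KO plus control sum in every number, to within 1e-06, so number effects are absent from it. STAR 2.7.8a, DESeq2 and mm10 are named in the submitters' processing notes. Counter, annotation and strand setting are not stated, so reads of overlapping or antisense genes may be mixed.

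Counts were filtered with filterByExpr, scaled by TMM and tested with edgeR 4.0.16 in R 4.3.3 (robust quasi-likelihood, genotype alone, all 8 libraries, Benjamini-Hochberg over 11909 genes). Log2 CPM used a prior count of 2. The scripts were checked on simulated data. Deviations from genotype means correlated within numbers (across genes, not independent replicates, r was 0.681, 0.722, 0.633 and 0.687 for numbers 1 to 4, beside 0.303, 0.0416, 0.582 and 0.503 with the nearest other number, so numbers 3 and 4 were less set apart), so the numbers were taken to pair libraries, with blocked fits printed where they alter a result. The labels name 4 sets but not what a set shares, so the pairing was decided from the counts. Alternatives used DESeq2 1.42.0, limma 3.58.1, other scalings, no filter and 1 library left out. Positions and exon lengths came from GENCODE M21 (GRCm38), and promoters from RefSeq (GRCm38.p6). 98.9% of genes had a chromosome. Copies were sought with blastn among GENCODE transcripts.

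The members and lists were chosen with earlier results of these data known. Every member was named. By rule, values per library were given for called members and for Srebf1, Srebf2, Insig1, Hmgcs1, Sqle, Fasn, Abca1, Scd1 and Scd2. Those of Mvd, Msmo1, Sc5d, Dhcr7 and Fads2 were added after their values were seen. In the other lists up to 3 called genes per direction were named. Genes of those lists and markers called only with the block were named after their values were seen. The rule for promoters named called members only, of which Lpl has no listed promoter, so those shown were chosen later. The test of number and the fits of numbers 1 and 2 or 3 and 4 alone were also added after the data were seen.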

Additional observations from a re-analysis of the deposited data

Results flagged for a closer look

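Each member was checked in each genotype for 1 library far from the other 3, in 74 sets of 4 libraries, and chance alone flags about 1 in 20 such sets. A single set stood out. Nsdhl, the X-linked sterol dehydrogenase, had 17.2 CPM in control 2, where the other control libraries had 44.8 to 49.4 CPM. In PUS10KO it ran from 21.0 to 52.0 CPM. Control 2 was also the lowest control library for the other 17 enzymes of the mevalonate and sterol arms.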

How the results depend on the processing

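The direction and call of each member's fold change were compared between the main fit and each alternative. In 43 combinations of member and alternative a call was gained, and in 1 it was lost (Lpl in numbers 1 and 2 alone). The rest kept their side of the threshold, and no called value turned. A member called in neither fit was given no direction. The replicate block moved most counts. With it 15 members fell and 2 rose, 15 genes of other pathways fell and 14 rose, and 2368 genes in all fell and 2273 rose. On the authors' normalized table with the block 14 members fell and 3 rose, 15 other pathway genes fell and 15 rose, and 2400 genes in all fell and 2389 rose. DESeq2 called 2 members and 8 other pathway genes as falling, and 1287 genes fell and 1146 rose. In numbers 1 and 2 alone 0 members fell, with 333 genes falling and 347 rising. In numbers 3 and 4 alone 9 members fell, 9 other pathway genes fell and 8 rose, with 1506 genes falling and 1333 rising. Leaving out 1 library gave 1 to 3 fallen members, 0 risen members, 3 to 5 fallen and 1 to 3 risen other pathway genes, and 520 to 728 fallen and 492 to 638 risen genes in all. The 3 fallen members came without control 2, the 5 fallen other pathway genes without control 3, and 560 and 520 fallen genes without PUS10KO 2 and PUS10KO 3. Library totals in place of TMM moved the median of all genes to 0.12. With 1 mismatch allowed, 12 of 36 member promoters (33.3%) held the sterol regulatory element, against 24.2% of all promoters. Why these counts moved was not tested, beyond fewer libraries where some were left out. Each member had 50 or more counts in each library.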

Other observations

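Fatty acid oxidation genes, the route opposite to synthesis, also differed between library numbers. Of 20 tested, 17 had the libraries numbered 3 and 4 above those numbered 1 and 2 in both genotypes, against 22.9% of all genes tested, and 0 had them below. The median ratio of numbers 3 and 4 over 1 and 2 was 1.48 in PUS10KO and 1.32 in control. By genotype 6 of the 20 rose and 3 fell with the replicate block, where 19.1% and 19.9% of all genes did. The isoprenoid branch, which shares its precursor with the sterol enzymes, had 5 of 9 genes lower in numbers 3 and 4 in both genotypes and 2 higher, with median ratios of 0.801 in PUS10KO and 0.863 in control. The test of number called 2 of these 9, where it called 42.4% of all genes tested, and 15 of the 20 oxidation genes. These lists were read after the number pattern had been seen, and what the numbers stand for is not known.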
